A study of Mus musculus with 8 samples.

Results

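Wild-type FLK1+ cells without PDGFRalpha (WT SP) were compared with wild-type FLK1+ cells that also carried PDGFRalpha (WT DP) at 167573 of the 168842 accessible regions of the table. These are the regions whose mean over 8 libraries reached 10 normalized reads, and the other 1269 fell below it. The means just inside and just outside that limit were 10.0007 and 9.9997. Both groups were sorted by FACS at day 4 from embryoid bodies, the clusters that stem cells form as they differentiate, and both came from the A2lox.Cre line, with 2 libraries each. PDGFRalpha+FLK1+ cells from a line with Etv2 knocked out (KO DP) and PDGFRalpha-FLK1+ cells of the iETV2 line (OE SP), which received doxycycline at 2 µg/ml from day 2.5, gave the other 4 libraries. No doxycycline is named for WT DP, WT SP or KO DP. Each labelled genotype is carried by a line of its own, and KO DP and OE SP also differ in the gate. The stem cells had been kept on mouse embryonic fibroblasts before feeder-free culture. Whether replicate libraries are separate cultures is not said in the labels, and the p-values cover only the spread between these libraries, which may be technical.

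FLK1, encoded by Kdr, is a receptor for VEGF and marks mesoderm that can form vessels, blood and heart. PDGFRalpha, encoded by Pdgfra, is a receptor of paraxial and cardiac mesoderm and is lost from cells that enter the endothelial and blood lineages. Etv2 is an ETS factor that stands at the head of both lineages. ATAC-seq reads open chromatin through the cuts of the Tn5 transposase, and reads collect over promoters and over distal elements such as enhancers. A region is called higher or lower in WT SP at an adjusted p below 0.05 (limma, 1 fit over the 8 libraries, adjusted over all 167573 regions), and a log2 change is that of normalized reads plus 5. In sorted bulk cells, fewer cells of a type and less open chromatin per cell cannot be told apart.

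The 4 wild-type libraries held 16575336 to 17762310 reads in regions, with a median of 35 to 40 reads per region. Replicates of WT DP and WT SP differed by a chi-square of 1.15 and 1.21 per degree of freedom, and those of OE SP by 4.34. The OE SP libraries therefore widen the spread that the 4 groups share, and counts without them are given below. The normalized reads summed over the tested regions came to 15948797 and 16085081 for WT DP and to 17214721 and 17684118 for WT SP. On the first principal component (71.0% of the variance) the WT SP libraries, at -23.9 and -32.2, lay between the WT DP and KO DP libraries, at -159 to -179, and those of OE SP, at 367 and 363. On the second (13.1% of the variance) the WT SP libraries stood apart at 144 each, with WT DP at -21.0 and -21.4, KO DP at -83.2 and -85.7 and OE SP at -112 and 34.5.

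Promoters were the places where a change could be set beside a sequence. Those of 6 genes are shown because their regions were among the 10 largest rises or falls at a listed promoter. They were chosen after the values were seen. Each runs 5′ to 3′ from 250 bases before to 50 bases after a start listed by RefSeq in GRCm38.p6 (mm10). Capitals mark CCGGAA and CAGGAA, letters that ETS factors bind, and AGATAA, letters that GATA factors bind, on either strand.
Ctla2a, chr13:60936576-60936875, minus strand: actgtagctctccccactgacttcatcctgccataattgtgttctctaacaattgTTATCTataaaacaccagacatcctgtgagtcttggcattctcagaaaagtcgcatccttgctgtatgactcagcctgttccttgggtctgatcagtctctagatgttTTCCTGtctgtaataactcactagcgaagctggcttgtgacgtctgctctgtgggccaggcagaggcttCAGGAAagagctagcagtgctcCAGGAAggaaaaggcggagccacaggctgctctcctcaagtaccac
Itga2b, chr11:102469834-102470133, minus strand: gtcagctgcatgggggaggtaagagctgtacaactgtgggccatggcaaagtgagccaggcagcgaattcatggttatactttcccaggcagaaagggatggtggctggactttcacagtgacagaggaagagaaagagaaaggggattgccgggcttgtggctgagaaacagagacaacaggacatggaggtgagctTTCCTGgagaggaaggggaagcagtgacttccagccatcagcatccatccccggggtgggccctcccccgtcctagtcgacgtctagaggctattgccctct
Myct1, chr10:5593478-5593777, plus strand: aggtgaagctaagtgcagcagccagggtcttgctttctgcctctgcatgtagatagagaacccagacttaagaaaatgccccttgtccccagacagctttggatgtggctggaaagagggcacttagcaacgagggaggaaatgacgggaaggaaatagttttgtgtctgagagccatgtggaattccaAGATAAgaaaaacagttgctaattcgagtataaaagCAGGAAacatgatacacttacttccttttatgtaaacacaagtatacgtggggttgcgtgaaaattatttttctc
Erg, chr16:95459299-95459598, minus strand: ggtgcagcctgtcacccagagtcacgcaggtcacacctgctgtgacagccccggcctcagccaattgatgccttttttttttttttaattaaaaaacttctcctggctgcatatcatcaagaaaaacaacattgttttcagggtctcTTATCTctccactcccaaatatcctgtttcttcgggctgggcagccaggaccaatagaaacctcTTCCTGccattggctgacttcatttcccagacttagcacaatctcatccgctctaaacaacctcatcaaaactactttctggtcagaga
Radil, chr5:142544978-142545277, minus strand: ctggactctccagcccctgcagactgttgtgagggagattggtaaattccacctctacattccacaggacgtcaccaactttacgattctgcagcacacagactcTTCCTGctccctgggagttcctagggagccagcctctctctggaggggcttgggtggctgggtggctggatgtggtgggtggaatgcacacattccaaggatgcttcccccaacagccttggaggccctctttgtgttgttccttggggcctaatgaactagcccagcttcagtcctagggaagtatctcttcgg
Msgn1, chr12:11208899-11209198, minus strand: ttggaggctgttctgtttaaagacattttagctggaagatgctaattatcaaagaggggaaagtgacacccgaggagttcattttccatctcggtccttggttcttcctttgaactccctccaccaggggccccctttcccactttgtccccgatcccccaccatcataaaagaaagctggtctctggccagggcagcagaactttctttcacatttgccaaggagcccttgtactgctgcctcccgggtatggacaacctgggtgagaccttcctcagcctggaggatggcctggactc

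Ctla2a encodes an inhibitor of cysteine proteases, and the region over its promoter held 10.7 and 12.6 normalized reads per WT DP library and 78.4 and 92.2 per WT SP library (log2 change 2.44, SE 0.21, adjusted p = 0.000146). Its near-identical neighbour Ctla2b moved alongside, from 16.5 and 12.6 to 89.6 and 68.4, and reads may be shared between the pair. Itga2b encodes CD41, an early marker of blood progenitors, and its promoter region measured 28.2 and 24.3 against 141 and 153 (2.29, adjusted p = 0.000565). That region, from 102469978 to 102470378 on chromosome 11, covers only part of the sequence shown. The capitals in the Itga2b sequence lie outside it. At Myct1 the values were 9.71 and 12.6 against 72.3 and 63.4 (2.18). The Erg promoter shown lies inside the gene, which encodes an ETS factor of endothelial cells, and measured 19.4 and 18.0 against 95.7 and 89.2 (2.04). The libraries of WT DP and WT SP did not overlap in these regions, nor in any called region, nor in 67.4% of all regions.

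Radil, which encodes an effector of the small GTPase RAP, stood apart from the promoters above. Its region rose from 34.9 and 32.3 to 159.8 and 179 (2.17, adjusted p = 0.000233). The KO DP libraries were high there, at 144 and 140.2, and those of OE SP lower, at 56.9 and 84.1. At the promoter regions of Ctla2a, Itga2b, Myct1 and Erg the KO DP libraries lay between 3.57 and 27.3 and the OE SP libraries between 167 and 663. Msgn1, a factor of presomitic mesoderm, had its promoter region at 242 and 243 in WT DP and 96.7 and 125 in WT SP (-1.11, adjusted p = 0.00331). That call was lost without WT DP replicate 2 (adjusted p = 0.0514) and without WT SP replicate 1 (adjusted p = 0.0631).

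Other promoter regions among the 10 largest rises were those of Epb42 (2.12), a protein of the red cell membrane, Slfn14 (2.05), F2rl3 (1.92), a thrombin receptor, and Ackr1 (1.92), a chemokine receptor of red cells and venous endothelium. Among the 10 largest falls at a listed promoter were those at Ptgds, a prostaglandin D synthase, from 306 and 276 to 68.2 and 81.3 (-1.89), at Flacc1 (-1.88), and at an inner promoter of Bcar3, from 1064 and 959 to 422 and 381 (-1.32).

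Called promoters were few. Over all tested regions 6.20% were called higher in WT SP and 8.12% lower, while of the 9085 regions that held a listed promoter 2.07% were higher and 0.594% lower. Of 10242 listed promoters in tested regions, 205 lay in a rise and 57 in a fall. The letters CAGGAA stood in 43.4% of the promoters in rises, in 24.6% of those in falls and in 25.8% of all. CCGGAA stood in 23.4%, 7.02% and 28.4%, AGATAA in 16.6%, 15.8% and 6.07%, and GGAATG, which TEAD factors bind, in 22.9%, 7.02% and 11.6%. For the letters CAGATG and ACAAAG, bound by E-box and SOX factors, the shares were 12.7% and 14.6% in rises, 24.6% and 28.1% in falls and 10.9% and 12.6% in all. Other letters of these factors differed less between rises and falls. CAGCTG (E-box) stood in 41 of the 205 promoters in rises, 11 of the 57 in falls and 15.6% of all. ACAATG (SOX) stood in 9.76%, 12.3% and 6.51%. The AP-1 letters TGANTCA stood in 18 promoters in rises, 8 in falls and 4.7% of all. T-box letters (AGGTGTGA) stood in 2 promoters in rises, 2 in falls and 0.869% of all. Forkhead letters (TGTTTAC) stood in 5 in rises (2.44%), 1 in falls and 2.4% of all. The promoters differed in base composition too, with a median GC content of 58.3% in rises, 53.3% in falls and 61.7% in all, and with a median of 13, 4 and 21 CpG. The part of base composition in these shares was not tested, and a match is a run of letters, not a bound site.

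The sort markers were taken first, since they check the labels. The region at an end of Pdgfra measured 579.5 and 657 in WT DP and 272 and 269.6 in WT SP (-1.17, SE 0.16, adjusted p = 0.000870). It remained at 269.6 or more in the cells sorted as lacking the receptor. Of 28 regions assigned to Pdgfra 2 rose and 4 fell, and of 43 assigned to Kdr 8 rose and 4 fell. Inside Kdr, a region at 75962170 on chromosome 5 went from 14.6 and 8.98 to 175 and 169.5 (3.42), and a region at 75954181 went from 393 and 377 to 63.1 and 87.2 (-2.30). Neither end of Kdr was called.

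**Figure D1:**
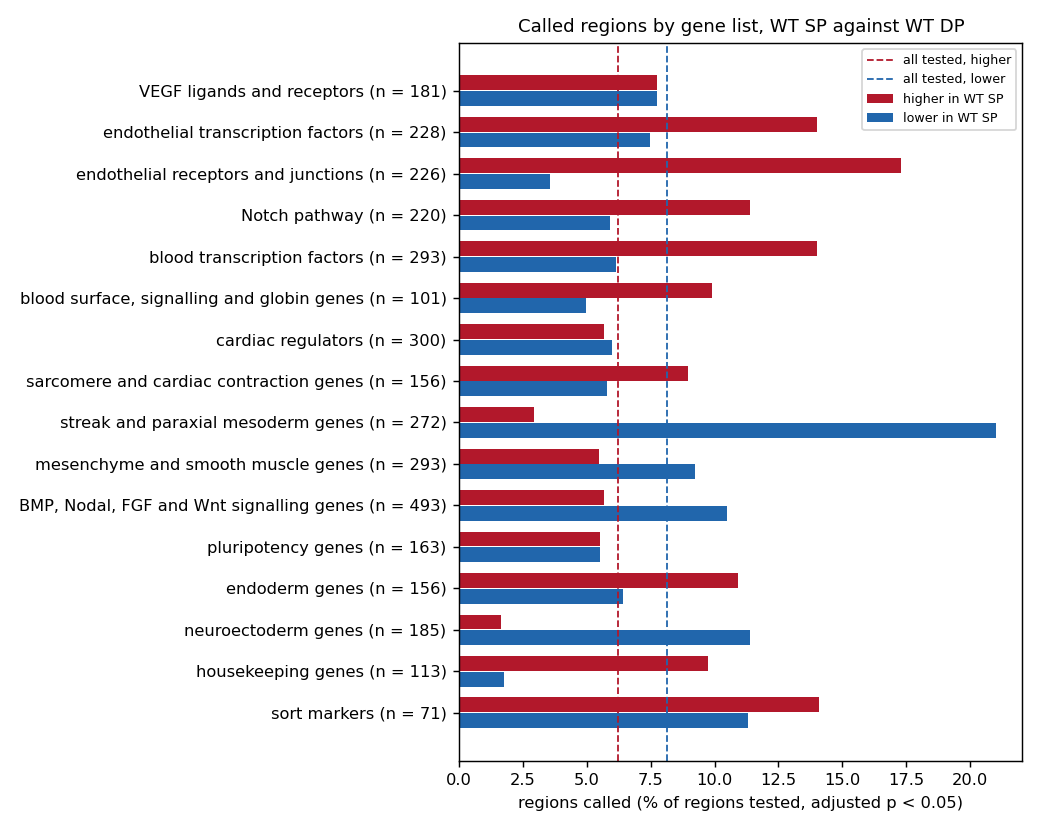
Percent of the regions of each gene list called higher (red) or lower (blue) in WT SP than in WT DP, with the number of regions per list; dashed lines mark the shares among all tested regions, 6.20% and 8.12%. Endothelial receptors reach 17.3% of regions higher, and streak and paraxial mesoderm genes 21.0% lower.

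Of the gene lists, endothelial receptor and junction genes had the highest share of rises (17.3%), a ranking that was not tested. It turned without the OE SP libraries. There 34991 of all 167573 regions rose. Blood transcription factors had 121 rises in 293 regions, housekeeping genes 40 in 113 and endothelial receptors 78 in 226. In the main fit 39 of the 226 regions of 18 endothelial receptor and junction genes rose and 8 fell (3.54%). The list's median log2 change was 0.17 above that of all regions. For housekeeping genes, chosen as a steady reference, the median was 0.13 above. Rises without falls were found in 10 genes, both in 4, and no call in 4 (Emcn, Esam, Robo4 and Rasip1). Tek encodes TIE2, an angiopoietin receptor, and 6 of its 18 regions rose. The region at its end measured 20.4 and 31.4 in WT DP and 112 and 117 in WT SP (1.97, SE 0.24, adjusted p = 0.000559). Near Egfl7, an endothelial secreted factor and host gene of miR-126, the values were 14.6 and 8.08 against 98.7 and 77.3 (2.53). At an end of Cdh5, the gene of VE-cadherin, they were 31.1 and 15.3 against 101 and 78.3 (1.80, adjusted p = 0.00265, and 0.0506 without WT SP replicate 1). S1pr1, a sphingosine phosphate receptor, had 6 rises in 22 regions with a largest of 1.63, and Eng, a TGF-beta coreceptor, 3 in 11 with a largest of 1.34. Pecam1, an adhesion molecule, had 2 rises and 2 falls in 18 regions. A region near it went from 64.1 and 61.1 to 22.4 and 15.9 (-1.50, adjusted p = 0.00329, and 0.0501 without WT SP replicate 2).

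VEGF ligands and receptors had 14 rises and 14 falls in 181 regions of 9 genes, 7.73% each and near the shares of all regions. The balance moved with the fit, to 43 and 20 without the OE SP libraries, 9 and 19 after rescaling on the 10000 highest regions and 7 and 12 with DESeq2. In the same order, all regions had 34991 and 25989, 6724 and 22305, and 4663 and 9413. Flt1, a VEGF receptor that restrains signalling through FLK1, had 3 of each in 42 regions. Its largest rise ran from 34.0 and 26.0 to 201 and 185 (2.51, SE 0.21, adjusted p = 0.000146). Nrp1, a coreceptor, had 4 of each in 36, and a region 82995 bp from it fell from 203 and 195 to 37.7 and 51.5 (-2.05). Nrp2, the neuropilin of veins and lymphatics, had 2 rises and 4 falls in 40, the largest from 107 and 116 to 29.5 and 30.7 (-1.73). Vegfa had 4 rises and 2 falls in 32 regions, and Flt4, the receptor for VEGF-C, none in 13.

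Endothelial transcription factors had 32 rises (14.0%) and 17 falls (7.46%) in 228 regions of 12 genes. Their median lay 0.16 above that of all regions, of which 6.20% rose and 8.12% fell. Fli1 and Ets1 are ETS factors that lie side by side on chromosome 9. A region between genes near Fli1 measured 8.74 and 15.3 in WT DP and 83.5 and 82.3 in WT SP (2.40, SE 0.25). Inside Ets1 a region went from 8.74 and 4.49 to 64.1 and 65.4 (2.61, SE 0.26, adjusted p = 0.000263). Fli1 had 9 rises and 2 falls in 39 regions, Ets1 6 and 3 in 41, Erg 4 and 1 in 30 and Elk3 5 and 1 in 25. Ets2 went the other way, with 1 rise and 5 falls in 27 and a largest fall from 69.9 and 88.0 to 17.3 and 21.8 (-1.77). Sox17 and Sox18 had no call in 11 and 3 regions, while Sox7 had 2 rises in 4. The 3 regions of Etv2 itself were not called. Inside the gene WT DP had 563 and 611 against 475 and 493 for WT SP (adjusted p = 0.395), while the knockout line had 0.840 and 0.

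Notch genes had 25 rises (11.4%) and 13 falls (5.91%) in 220 regions of 13 genes, beside 6.20% and 8.12% of all regions. Notch1 held both kinds. A region inside it went from 583 and 596 to 171 and 171 (-1.75, SE 0.15, adjusted p = 0.000176), and the region at its end rose from 83.5 and 75.4 to 185 and 204 (1.24, adjusted p = 0.00302, and 0.0513 without WT DP replicate 2). Rises without falls were found at Dll4, a ligand of arterial cells (2 in 8 regions), and at the target genes Hey1 (2 in 8) and Hey2 (2 in 9). Efnb2, a marker of arteries, had 6 rises and 1 fall in 26. Jag1 had 4 falls and no rise in 20. Near Hes1, a target gene, 3 regions fell and 1 rose of 38, with the largest fall from 167 and 146 to 39.7 and 44.6 (-1.77).

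Blood transcription factors had 41 rises (14.0%) and 18 falls (6.14%) in 293 regions of 19 genes. Their median lay 0.19 above that of all regions, of which 6.20% rose and 8.12% fell. Tal1, which is needed for all blood lineages, had 6 rises in 8 regions, both of its gene-end regions among them. The end region at 115071677 on chromosome 4 lost its call with DESeq2 (adjusted p = 0.0951) and without any one wild-type library (adjusted p = 0.0575 to 0.188). The rises of Tal1 ran from 0.65 to 1.40, and its largest was from a mean of 65.5 to 180.4 at 19.2 kb from the gene's lower-coordinate end. Ikzf1, which encodes the lymphoid factor IKAROS, had a region at 12.6 and 22.5 in WT DP and 82.4 and 87.2 in WT SP (2.03, SE 0.30). Spi1, the gene of PU.1, had 3 rises in 7 regions, of which that at the gene's end lost its call under 11 alternatives, and Gata2 had 2 in 8. Runx1, which drives the step from endothelium to blood, had 4 rises and 5 falls in 66, near the shares of all regions. Mecom had 7 and 5 in 52.

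Among blood surface, signalling and globin genes 10 of 101 regions rose (9.9%) and 5 fell (4.95%), beside 6.20% and 8.12% of all regions. No call was found in 6 of 13 genes. Vav1, a guanine nucleotide exchange factor of blood cells, had 1 rise in 10 regions, from 7.77 and 10.8 to 121 and 80.3 (2.87, SE 0.27, adjusted p = 0.000209). Kit, the receptor for stem cell factor, had 5 rises in 26 with a largest of 1.51. The embryonic globin genes Hbb-bh1, Hbb-y and Hba-x had 1 region each and no call.

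**Figure D2:**
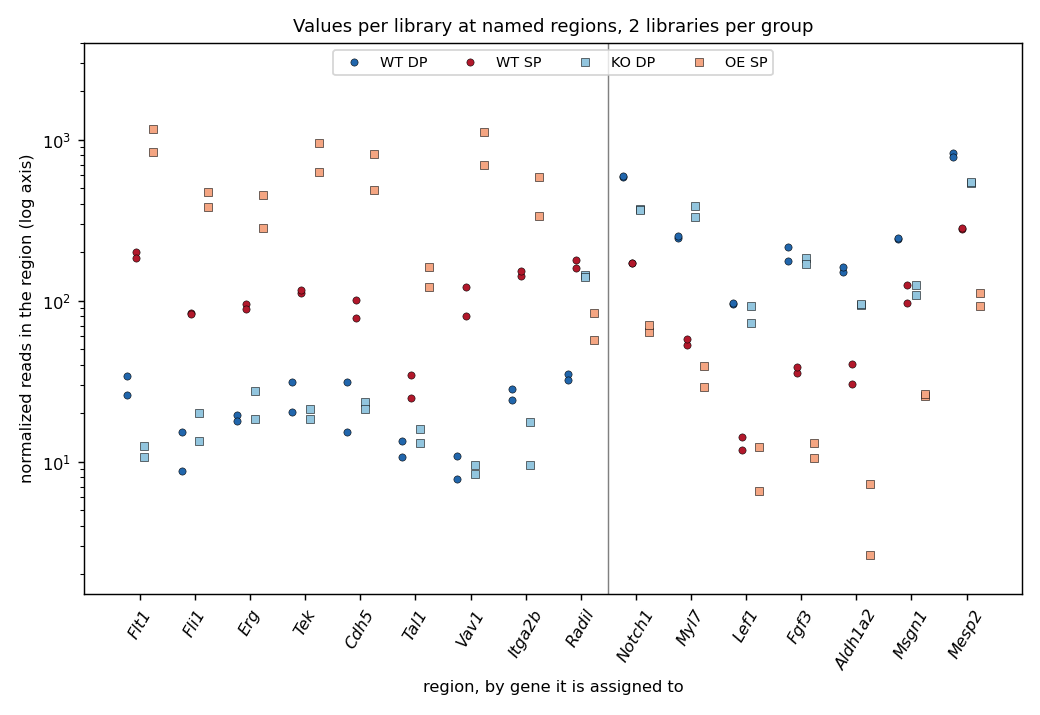
Normalized reads per library (log axis) at 16 regions, by the gene each is assigned to; circles are wild-type and squares KO DP or OE SP libraries, with 2 per group, and the grey line parts rises in WT SP from falls. At Radil the KO DP libraries (144 and 140.2) lie near WT SP and above OE SP, unlike the other rises.

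Streak and paraxial mesoderm genes carried falls. Of 272 regions of 22 genes 57 fell (21.0%) and 8 rose (2.94%), with a median 0.26 below that of all regions. Falls without rises were found in 12 genes and rises without falls in 2 (T and Tcf15). Mesp2, which sets somite borders, had its end region at 829 and 785 in WT DP and 279.9 and 284 in WT SP (-1.50, SE 0.15, adjusted p = 0.000267). Dll1, the Notch ligand of presomitic mesoderm, had an end region at 46.6 and 50.3 against 6.11 and 2.97 (-2.50). A region inside Aldh1a2, which makes retinoic acid, went from 151 and 161 to 30.5 and 40.6 (adjusted p = 0.000682). Lhx1, a factor of the streak and lateral mesoderm, had 12 falls and 1 rise in 30 regions, Foxc1 6 falls and no rise in 15, and Gsc 6 falls and 1 rise in 25. The rise inside Lhx1 was from 63.1 and 89.8 to 209 and 199 (1.38). Brachyury (T), the general streak factor, had 1 rise and no fall in 9.

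Among genes of BMP, Nodal, FGF and Wnt signalling 28 of 493 regions rose (5.68%) and 52 fell (10.5%). The shares of all regions were 6.20% and 8.12%. The calls lay unevenly over the genes, which was not tested, and many genes had few regions. The BMP targets Id1, Id2 and Id3 had 1, 2 and 3 rises in 9, 21 and 17 regions and no falls, and the BMP inhibitor Smad6 had 5 rises and 1 fall in 52. The Wnt targets named in the list had 8 falls and no rise in 35 regions of Lef1, 6 and 1 in 26 of Axin2 and 2 and 0 in 8 of Sp5. Near Lef1, which encodes a DNA-binding partner of beta-catenin, a region measured 95.1 and 97.0 in WT DP and 14.2 and 11.9 in WT SP (-2.49, SE 0.25). The Wnt ligand genes Wnt8a and Wnt5a had 3 falls in 5 and 2 in 9, and the region at an end of Wnt5a went from 160.2 and 202 to 67.2 and 52.5 (-1.52). Fgf3, Fgf4, Fgf5 and Fgf8, ligands of the streak, had 4, 1, 1 and 2 falls and no rise in 16, 4, 7 and 8 regions. A region near Fgf3 went from 215 and 177 to 35.6 and 38.7 (-2.25). Spry2, an inhibitor of FGF signalling, had 2 rises in 18, the larger from 11.6 and 13.5 to 47.8 and 67.4 (1.82), while Spry4 had 2 falls in 15.

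Cardiac regulators were called at shares near those of all regions, with 17 rises (5.67%) and 18 falls (6.0%) in 300 regions of 15 genes. Hand1, Tbx5 and Nkx2-5, factors of the heart fields, had no call in 24, 37 and 10 regions. Fgf10, a ligand of the second heart field, had 6 rises and 3 falls in 21, and a region 41453 bp from it went from 4.85 and 6.29 to 66.2 and 74.3 (2.83, SE 0.28). Near Myocd, a cofactor for muscle genes, a region fell from 241 and 271 to 75.3 and 77.3 (-1.68).

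Sarcomere and cardiac contraction genes had 14 rises (8.97%) and 9 falls (5.77%) in 156 regions, beside 6.20% and 8.12% of all regions. No call was found in 9 of 18 genes. Myl7, an atrial myosin light chain, had an end region at 246 and 252 in WT DP and 52.9 and 57.5 in WT SP (-2.08, SE 0.19, adjusted p = 0.000195). A region inside Actn2, a protein of the Z disc, went from 282 and 317 to 115 and 100.1 (-1.44). In the other direction, a region at an end of Tnnc1, cardiac troponin C, went from 14.6 and 18.0 to 59.0 and 70.4 (1.71), and a region inside Ryr2, the calcium release channel, from 13.6 and 14.4 to 64.1 and 56.5 (1.78).

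Mesenchyme and smooth muscle genes had 16 rises (5.46%) and 27 falls (9.22%) in 293 regions, near the shares of all regions. Cdh2, the gene of N-cadherin, had 7 falls and no rise in 41, and Fn1, the gene of fibronectin, 4 and 0 in 21. Near Fn1 a region went from 524 and 575 to 151 and 149.7 (-1.84). Zeb2, a repressor of epithelial genes, held 5 rises and 4 falls in 39 regions, with a region inside it going from 108 and 116 to 23.4 and 33.7 (-1.82).

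Markers of cell types that a gate on FLK1 could also hold are given for all lists. Endoderm genes had 17 rises (10.9%) and 10 falls (6.41%) in 156 regions, beside 6.20% and 8.12% of all regions. Over all tested regions the summed reads were 15948797 and 16085081 in WT DP and 17214721 and 17684118 in WT SP. Those of the endoderm list were 12719 and 12971 in WT DP and 12581 and 12835 in WT SP. Of the rises 7 lay in Cubn, an endocytic receptor of visceral endoderm, which had 15 regions and no fall, with the largest from 9.71 and 7.19 to 60.1 and 58.5 (2.26). The largest fall of all tested regions lay inside another gene of that list, Lama1, a laminin chain, from 169.9 and 146 to 12.2 and 11.9 (-3.25, SE 0.21, adjusted p = 0.000111). Neuroectoderm genes had 3 rises (1.62%) and 21 falls (11.4%) in 185 regions, and 9 of the falls lay in Ncam1, an adhesion molecule. Pluripotency genes had 9 and 9 in 163 (5.52% each), with no call at Nanog or Zfp42. Housekeeping genes had 11 rises and 2 falls in 113 regions, of which 4 rises were at Eef1a1. In this list, chosen as a steady reference, the share of rises (9.73%) lay above that of all regions and the share of falls (1.77%) below it. No gene of these lists was without a region. The part of such cells in the results above was not tested.

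Leaving out a library reduced the counts of each list. With WT DP replicate 1 or 2, or WT SP replicate 1 or 2, left out, in that order, endothelial receptors had 12, 17, 13 and 14 rises and streak genes 25, 24, 24 and 29 falls. Calls over all regions dropped in these fits too, as given below. Blood transcription factors lost most of their rises. Without WT DP replicate 1 their share of rises was no higher than that of all regions. Their falls outnumbered rises without WT DP replicate 1 and without WT SP replicate 2. In the same order, their median lay 0.21, 0.21, 0.18 and 0.22 above that of all regions. For endothelial factors it lay 0.14, 0.14, 0.17 and 0.15 above, with more rises than falls in each of these fits. Without the OE SP libraries the counts grew, to 78 rises and 18 falls for endothelial receptors, 121 and 33 for blood transcription factors and 34 and 91 for streak genes. The same fit turned the balance of all regions, to 34991 rises and 25989 falls. It also turned the balance for cardiac regulators (68 and 40), mesenchyme (60 and 50) and signalling genes (136 and 96). For Pdgfra and Kdr together it turned from 10 rises and 8 falls to 15 and 17 in that fit, to 8 and 11 after rescaling on the 10000 highest regions, to 6 and 7 with DESeq2, and to 1 to 4 rises and 4 to 6 falls on leaving out a wild-type library. Leaving out WT SP replicate 1 turned it for Notch genes (5 and 6), sarcomere genes (2 and 5) and endoderm genes (3 and 5), and leaving out WT SP replicate 2 for sarcomere genes (4 and 5). Rescaling on the 10000 highest regions moved the balance of all regions towards falls, to 6724 rises and 22305 falls. It turned the balance for endothelial factors (20 rises and 23 falls), Notch genes (14 and 26) and blood surface genes (7 and 10). Sarcomere genes (11 and 16) and endoderm genes (13 and 24) turned too, and blood transcription factors became equal (29 and 29). Relative to all regions, the medians of all lists but cardiac regulators and endoderm genes kept their sign in every fit run. Housekeeping genes, chosen as a steady reference, kept it as well, at 0.09 to 0.17 above all regions.

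**Figure D3:**
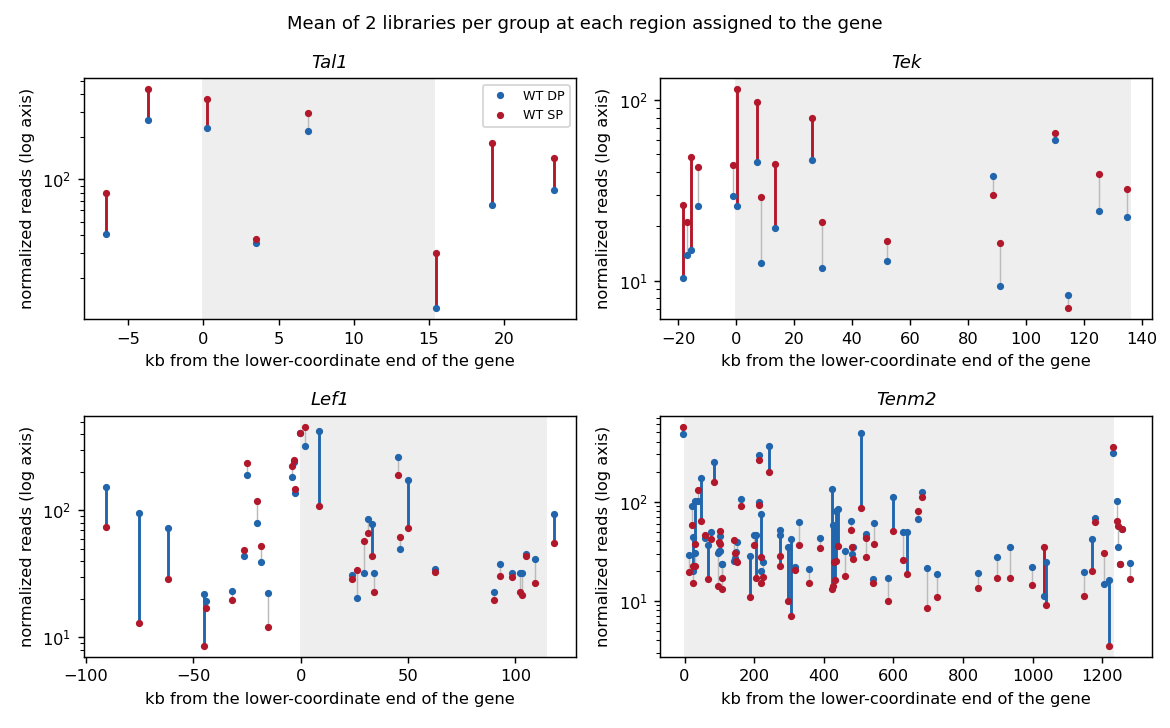
Mean normalized reads of 2 libraries (log axis) in WT DP (blue) and WT SP (red) at each region assigned to Tal1, Tek, Lef1 and Tenm2, by distance in kb from the gene's lower-coordinate end, with the gene shaded. Red lines join called rises (6 of 8 at Tal1, 6 of 18 at Tek), blue lines called falls (8 of 35 at Lef1, 24 of 81 at Tenm2) and grey lines regions not called.

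Over all 167573 regions 10395 rose and 13600 fell, among which 6652 rises and 9190 falls reached 2-fold. The rises ran from 0.45 to 3.45 with a median of 1.10, and the falls from -0.47 to -3.25 with a median of -1.14. Rises were 43.3% of the calls, 59.1% with the wild-type libraries alone in the fit (37453 rises and 25969 falls), 33.1% with DESeq2, 36.2% after median-of-ratios rescaling and 23.2% after rescaling on the 10000 highest regions. That last rescaling moved the median log2 change of all regions from 0.11 to -0.11. The fits that left out WT DP replicate 1 and WT DP replicate 2 had 2316 and 2228 rises and 3988 and 3503 falls. Those that left out WT SP replicate 1 and WT SP replicate 2 had 1784 and 2027 rises and 4168 and 5034 falls. No call changed direction in any fit.

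Where the calls lay differed between rises and falls. At gene ends, within 1 kb of either end of a protein-coding gene, 3.41% of 19396 regions rose and 2.08% fell. Of 17737 regions with no gene within 100 kb, 6.35% rose and 13.8% fell. Inside genes the share of falls grew with the length of the gene, from 4.23% in genes under 20 kb to 6.34%, 9.32% and 13.0% in genes of 20 to 100 kb, 100 to 500 kb and over 500 kb. The rises showed no such order, at 5.86%, 6.59%, 6.69% and 5.45%. Over the 20 chromosomes with at least 1000 regions the shares ran from 5.40% to 7.34% for rises and from 7.19% to 8.65% for falls. These classes also differ in their level, with a median of 207 normalized reads in WT DP at gene ends and 27.4 where no gene was near, and the part of level in the shares was not tested.

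**Figure D4:**
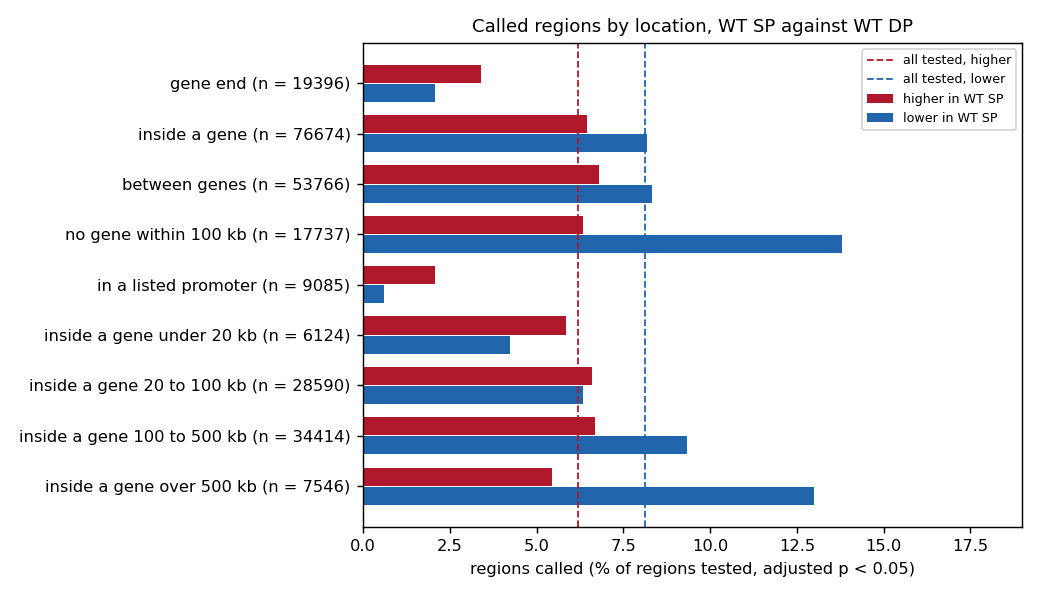
Percent of regions called higher (red) or lower (blue) in WT SP than in WT DP, by where the region lies and, inside genes, by the length of the gene; dashed lines mark the shares among all tested regions. Falls reach 13.8% of regions far from genes and 13.0% in genes over 500 kb, against 0.594% at listed promoters.

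Counted per gene, falls outnumbered rises most in a set of mostly long genes. A ranking by counts favours genes with many regions. Of all regions 8.12% fell, beside 9.32% inside genes of 100 to 500 kb and 13.0% inside genes over 500 kb. Auts2 had 40 falls and 8 rises in 140 regions, Tenm2, a teneurin adhesion receptor, 24 and 1 in 81, and Tenm4 23 and 2 in 114. Grik4, a kainate receptor subunit, Asic2, an acid-sensing channel, and Dab1, an adaptor of reelin signalling, had 18 falls each and no rise, in 69, 85 and 92 regions. In Tenm2 the largest fall was from 133 and 135 to 15.3 and 10.9 (-2.95, SE 0.26). Slit1, an axon guidance ligand, was shorter and had 15 falls and 1 rise in 39 regions. Of the 9462 genes with at least 5 regions, 2270 had falls only, 2081 rises only, 2363 both and 2748 neither.

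The ranking by rises minus falls favours genes with many regions too, and 6.20% of all regions rose. Its leading genes were Irs2, an adaptor of insulin signalling (12 rises in 39 regions), Xxylt1 (12 in 43) and Gadd45g, a stress-response gene (10 in 29). None of these had a fall. Magi1 had more rises, 16 in 110 regions, beside 7 falls. Tead1, a partner of YAP, had 10 rises and 1 fall in 66, and Amotl2, a protein that binds YAP and endothelial junctions, 8 rises in 21. Tpm1, a tropomyosin, had 8 rises in 20 and Ahnak 8 in 22.

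Called regions also stood in runs, counted as called regions in the same direction with no tested region between them and gaps of at most 50 kb. Runs of 3 or more numbered 141 for rises and 265 for falls. The longest run of rises held 7 regions over 38.7 kb of chromosome 9 from 78488999 to 78527722, by Eef1a1 and Slc17a5, with changes of 0.60 to 1.76. A run of 6 rises on chromosome 16 from 95831484 to 95863044 had no gene within 100 kb, and its mean went from 31.1 and 33.7 in WT DP to 112 and 107 in WT SP. Among falls, 7 regions of chromosome 1 from 158020010 to 158093487 had a mean of 104 and 109 in WT DP and 34.6 and 35.3 in WT SP. A run of 6 falls over 75.6 kb of chromosome 3, from 130989765 to 131065379, had 4 regions assigned to Lef1 and the others farther than 100 kb from it, with changes of -1.02 to -2.49.

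Of the 5 largest rises, 1 was the region inside Kdr given above. Near Ap1m1, on chromosome 8 at 72268316 to 72268716, a region went from 16.5 and 24.3 to 275 and 264 (3.45, SE 0.23, adjusted p = 0.000111). Near Dppa4 the values were 9.71 and 10.8 against 170.0 and 147 (3.42), near Cyp4a10 9.71 and 9.88 against 139 and 149 (3.33), and inside Mrtfb, a cofactor of serum response factor, 11.6 and 10.8 against 131 and 159 (3.20). At gene ends the largest rises were at Flt3l, a blood cytokine (18.4 and 22.5 against 207 and 153, 2.85), at the lectin receptor genes Clec12b and Clec1a, which lie side by side (5.82 and 8.08 against 66.2 and 68.4, 2.60), and at Gimap6 (9.71 and 22.5 against 114 and 116, 2.58). The largest falls at gene ends were at Tff3, a trefoil factor (160.2 and 165 against 20.4 and 24.8, -2.61), Crybg2 (-2.44), Mapre3, a microtubule end-binding protein (-2.43), and Kmt5c, a histone methyltransferase (-2.38).

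A second pair of groups with the same gates, OE SP and KO DP, shares no library with the wild-type comparison. Its line, genotype and doxycycline cannot be told apart from the gate, and it was fitted with the same shared spread. In that pair 25.2% of all tested regions were higher in OE SP and 32.9% lower. Of the 13600 wild-type falls 88.9% were lower in OE SP and 1.03% higher. Of the 10395 rises 55.7% were higher in OE SP, 17.5% lower and 26.8% not called. Across the regions the log2 changes of both pairs had a Pearson correlation of 0.52, given as a description, since regions share libraries and depth and are not independent replicates.

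**Figure D5:**
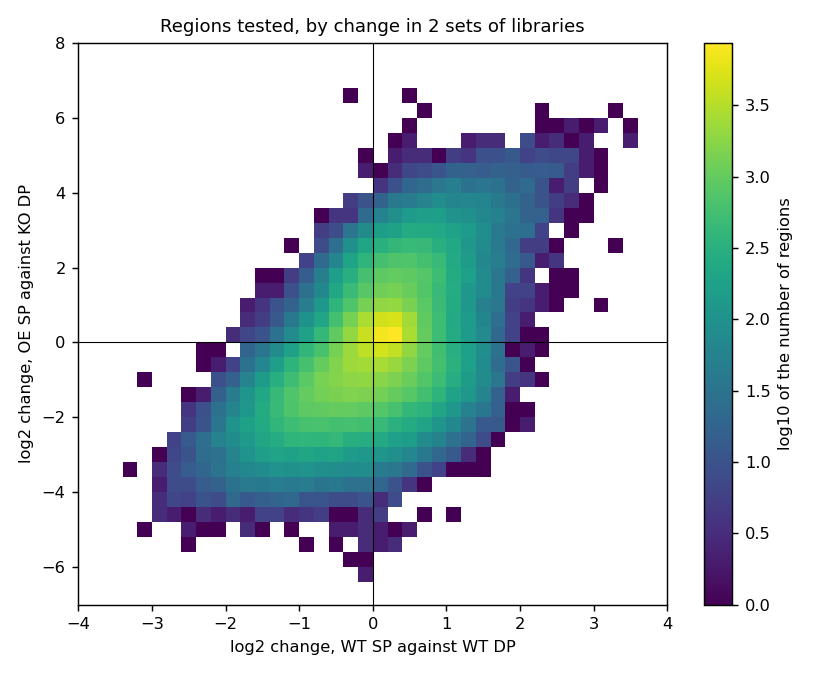
Number of regions (colour, log10) by the log2 change from WT DP to WT SP (x axis) and from KO DP to OE SP (y axis) for the tested regions. Regions with falls on the x axis lie mostly below 0 on the y axis (88.9% of called falls), and called rises are divided, with 55.7% called higher and 17.5% lower.

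The 1823 rises that were lower in OE SP had WT DP medians of 34.0 and 34.1 and WT SP medians of 77.4 and 79.3. Their KO DP medians were 51.2 and 53.5, and those of OE SP 14.6 and 23.6. The 5785 rises that were higher in OE SP had WT DP medians of 17.5 and 17.1 and WT SP medians of 49.9 and 48.6. Here the KO DP medians were 17.6 and 17.8, and those of OE SP 99.9 and 142. Both sets were chosen by OE SP against KO DP, so the order of those medians follows from the choice. By list, 33 of the 39 rises of endothelial receptors, 26 of 32 of endothelial factors and 34 of 41 of blood factors were higher in OE SP, and 3, 1 and 1 were lower. Among the rises of cardiac regulators 6 of 17 were higher and 5 lower, and of sarcomere genes 7 of 14 and 5. Of the 57 falls of streak genes 54 were lower in OE SP.

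Some genes were divided in the same way. The rises of Gadd45g were higher in OE SP in 8 of 10 cases and lower in none, while those of Ahnak were higher in 1 of 8 and lower in 5, and those of Tpm1 higher in 2 of 8 and lower in 4. The Tnnc1 end region had 28.5 and 27.3 in KO DP and 23.3 and 19.7 in OE SP, both below WT SP. Of the falls in long genes, 38 of 40 in Auts2, 23 of 24 in Tenm2, 20 of 23 in Tenm4, 18 of 18 in Asic2, 16 of 18 in Grik4 and 15 of 18 in Dab1 were lower in OE SP, beside 88.9% of all falls. Flt1's rising region had 12.6 and 10.7 in KO DP and 835 and 1160.1 in OE SP, and Mesp2's falling region 537 and 547 against 112 and 93.3.

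Of the 96 regions that the rule for naming chose and that were called, 55 kept the call under every alternative and 25 lost it only when a wild-type library was left out. Every region given above with values in each wild-type library and without a remark kept it.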

How the data were processed

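ATAC-seq was measured in 8 libraries of sorted day 4 embryoid body cells. Per the labels' protocols the Omni-ATAC procedure and paired ends were used, and build mm10, DiffBind 3.14.1, MACS2 and Bowtie2 were named, without their roles, per the submitters' processing notes. The authors deposited a table of signal values, normalized reads per region, for 168842 regions of 401 to 1126 bp. The scaling of the values, any shift of reads to the Tn5 cut site and the handling of duplicates are not given in the sources used. Scaling moves the balance of rises and falls. All columns matched a sample, and 0 did not. At a tolerance of 0.01 reads, 100% of values came out as whole multiples of a step per library, which gave back the reads.

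Regions were tested with limma 3.58.1 (R 4.3.3) after taking log2(value + 5), as 4 group means with a trend in the empirical Bayes step, 4 residual degrees of freedom and two-sided p-values adjusted by Benjamini-Hochberg over 167573 regions. It was tested on simulated data first. Alternatives were other pseudocounts (1 and 20), filters (none, and a mean of 30), scalings, fits without some libraries, edgeR 4.0.16 and DESeq2 1.42.0 on recovered reads, where edgeR called 11665 rises and 15106 falls and DESeq2 4663 and 9413. Regions were given to the nearest protein-coding gene within 100 kb in a table of GRCm38.p6 without strand. The plan named transcription starts where listed, and gene spans were used because promoters were listed for 17491 of 21896 genes. Promoters count where at least 150 bp lie in a region. Named regions are up to 2 called rises and 2 called falls of each gene list by size, at most 1 per gene and direction, and the same at its gene ends, the 5 largest rises and falls overall and at gene ends, the 3 longest runs in each direction, the 10 genes with the most rises minus falls and the reverse, and Kdr, Pdgfra and Etv2. The regions, gene lists and tests were chosen with earlier results of these data known. Reads have no molecular identifiers, so they are not independent molecules.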

Additional observations from a re-analysis of the deposited data

How the results depend on the processing

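Rises in WT SP numbered 10395 as reported, 4663 with DESeq2, 37453 with the wild-type libraries alone, 34991 without the OE SP libraries, 6724 after rescaling on the 10000 highest regions, and 1784 to 2316 on leaving out a wild-type library. Falls numbered 13600 as reported, 25969 with the wild-type libraries alone, 25989 without the OE SP libraries, 8794 at a mean of at least 30 (97743 regions tested), 22305 after rescaling on the 10000 highest regions, and 3503 to 5034 on leaving out a wild-type library. In OE SP against KO DP, 42164 regions were higher and 55055 lower as reported, and 22373 and 33115 in the fit at a mean of at least 30. In these fits no wild-type call changed direction. With the replicate block there were 10380 rises and 13246 falls. Whether the replicate numbers pair the libraries is not settled. The correlation of same-numbered deviations between WT DP and WT SP was 0.01. That cannot decide it: replicates differed little beyond counting noise (chi-square 1.15 and 1.21 per degree of freedom), which pairing would not correlate. Leaving a library out makes its group a lone sample, assumed to vary like the others. The median standard error of a log2 change was 0.26 in the main fit, whose shared spread the OE SP libraries widen. Small changes were not detectable in that fit. The parts of read depth (35 to 40 reads in a median region) and of that spread were not separated. Of the 96 named and called regions, DESeq2 lost 13, a pseudocount of 1 lost 6, and the fits without a wild-type library 29 to 38. The causes were not tested.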

Other observations

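At an unadjusted p under 0.05, 50124 of the 167573 regions differed between WT SP and WT DP, against 23995 after adjustment. The rises that were lower in OE SP than in KO DP lay at gene ends in 4.44% of cases, those that were higher in 6.34%, and neither share was tested. The 140 wild-type falls that were higher in OE SP had median normalized reads of 50.5 and 49.0 for WT DP, of 22.4 and 23.3 for WT SP and of 64.9 and 55.2 for OE SP. Their KO DP medians were 26.0 and 25.0. These regions were chosen by both comparisons, so the order of the medians within each pair of groups follows from the choice.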
